A study of Mus musculus with 6 samples.

Results

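The 60 genes described here are the Wnt ligands, their receptors, their secreted antagonists, the R-spondins with their Lgr receptors, the transducers of the signal and its common target genes. They were taken from a list of gene symbols, and 59 of the 60 had a probe set among the 24675 genes of the table. Tcf7, a T-cell factor gene, was not analysed here. Transcript levels were measured on Affymetrix arrays in 3 dorsal and 3 ventral samples from mouse embryos of the C57Bl/6 strain at embryonic day 10.5. The labels name no transgene, mutation or drug treatment. Dorsal samples were laser-cut between notochord and aortic roof, ventral samples beneath the aorta, and both regions came from the same embryos. The number of embryos behind a sample was not given. Each value is a log2 signal after RMA, which corrects background and brings arrays to a common distribution. The comparison asks which transcripts differ between the 2 sides of the aorta, from which the first blood stem cells emerge.

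Wnt proteins are secreted, lipid-modified ligands that bind Frizzled receptors together with the co-receptors Lrp5 and Lrp6. Binding stops a complex built on Axin from marking beta-catenin for breakdown, and beta-catenin then acts with Tcf and Lef factors at target genes, several of which encode inhibitors of the pathway itself. Wnt signals that do not use beta-catenin run through Ror receptors and through planar cell polarity. In the embryonic trunk the pathway patterns somites and intermediate mesoderm, and it has been studied in the emergence of blood stem cells from the aorta.

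No Wnt pathway gene differed between ventral and dorsal tissue at an adjusted p of 0.05 in limma, which called 0 of the 59 genes and 0% of all genes. The lowest adjusted p among the 59 was 0.464. At an unadjusted limma p under 0.05 there were 5 genes, or 8.47%, against 10.2% of all genes. Sp5, Wif1, Wnt5b and Wnt9b had higher dorsal values (5.9% of all genes did) and Dkk3 had higher ventral values (4.32% of all genes). These shares lay near those of the whole table, so the 5 genes are described by their values and not as differences established by the test. An exact two-sided permutation test on 3 against 3 arrays has 0.1 as its smallest p, so none is given for single genes.

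Most of the pathway, like most genes of the table, read within the signal range of genes that are not expected to be active in this tissue. The arrays carry 1088 olfactory receptor genes, which are largely silent outside the nose, and the 95th percentile of their signals was used as a yardstick on each array (4.59 to 4.65 on dorsal, 4.72 to 4.90 on ventral arrays). It is not a detection call. Ror2 alone among the 59 genes exceeded the yardstick on all 3 arrays of a region, a share of 1.69% against 5.41% of all genes. A further 9 genes exceeded it on 1 or 2 arrays, and 49 of the 59 did so on no array. The same held for 20949 of all 24675 genes, so low signals were not particular to the pathway. With the 90th percentile as yardstick 7 genes passed, namely Ror2, Wnt9b, Fzd1, Fzd7, Lrp6, Dkk1 and Znrf3, and with the 99th percentile 0 passed. A low signal does not show that a transcript was absent. Ctnnb1, which encodes beta-catenin, a protein of the cell junctions of most tissues, read 3.94, 3.77 and 3.34 on dorsal arrays 1, 2 and 3 and 4.29, 3.69 and 3.24 on the ventral arrays, under the yardstick on every array. A ventral minus dorsal difference between 2 signals of this height can understate a difference in transcript level.

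Sp5 encodes a zinc finger transcription factor that is a direct target of beta-catenin, and Axin2, a negative regulator in the breakdown complex, is the target most often used as a readout of the pathway. Their promoters are shown with that of Wif1, a secreted antagonist, because Sp5 and Wif1 had the largest differences among the 59 genes while Axin2 had a small one. Each window runs from 250 bases before to 50 bases after the annotated start, from RefSeq on build GRCm38.p6, and lies at chr2:70474673-70474972 (+ strand) for Sp5, chr11:108920099-108920398 (+ strand) for Axin2 and chr10:121033754-121034053 (+ strand) for Wif1. Capitals mark matches on either strand to the Tcf and Lef word CTTTGAA, of which the last 2 bases could also be AT, TA or TT.
Sp5: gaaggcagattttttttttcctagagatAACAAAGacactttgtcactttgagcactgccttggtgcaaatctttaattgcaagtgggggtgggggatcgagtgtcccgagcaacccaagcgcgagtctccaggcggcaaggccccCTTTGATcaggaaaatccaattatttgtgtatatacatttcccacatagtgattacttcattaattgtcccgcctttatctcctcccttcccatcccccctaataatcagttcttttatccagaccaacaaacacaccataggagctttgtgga
Axin2: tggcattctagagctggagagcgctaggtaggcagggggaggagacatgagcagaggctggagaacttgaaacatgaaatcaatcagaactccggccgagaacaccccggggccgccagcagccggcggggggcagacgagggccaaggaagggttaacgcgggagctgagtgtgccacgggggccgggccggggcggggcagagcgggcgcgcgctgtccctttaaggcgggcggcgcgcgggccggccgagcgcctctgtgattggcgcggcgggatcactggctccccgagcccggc
Wif1: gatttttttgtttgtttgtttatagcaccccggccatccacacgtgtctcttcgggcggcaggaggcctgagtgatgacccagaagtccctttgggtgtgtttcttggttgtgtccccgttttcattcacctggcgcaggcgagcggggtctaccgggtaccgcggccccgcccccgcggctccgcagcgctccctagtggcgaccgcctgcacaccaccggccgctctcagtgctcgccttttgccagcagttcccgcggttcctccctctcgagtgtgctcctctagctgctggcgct
The Sp5 window held 2 matches, CTTTGAT starting at position -104 and AACAAAG, which is CTTTGTT on the other strand, starting at position -222 from the annotated start. The Axin2 and Wif1 windows held no match. A promoter was listed for 40 of the 59 genes, of which 8 had a match in at least 1 window. Over windows, 8 of 49 had a match (16.3%), and 16.9% of all 32851 windows in the table did. A match describes the sequence only.

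Among the target genes and feedback inhibitors, Sp5 read 3.73, 4.75 and 4.25 on dorsal arrays 1, 2 and 3 and 3.49, 3.04 and 3.50 on the ventral arrays. Every dorsal array was above every ventral array. The means were 4.25 ± 0.51 and 3.34 ± 0.26 (SD, n = 3 each), a ventral minus dorsal difference of -0.90 ± 0.30 (SE, log2) with a 95% interval from -1.65 to -0.16, or a 1.87-fold higher dorsal signal. The limma adjusted p was 0.464 (unadjusted 0.0254), and 1342 genes of the table had a smaller p. Pair 2 carried much of the difference, since the pairs differed by -0.25, -1.71 and -0.75 in order of their number, and without pair 2 the difference was -0.50. Only dorsal array 2 lay above the yardstick for this gene.

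Rnf43 encodes a ubiquitin ligase that removes Frizzled receptors from the cell surface. Rnf43 read 3.50, 3.46 and 3.30 on the dorsal arrays and 3.59, 3.94 and 3.90 on the ventral arrays, so that every ventral array was above every dorsal array, with a difference of 0.39 ± 0.19 (adjusted p 0.530 in limma). Its relative Znrf3, a ligase with the same role, had -0.21. Axin2 read 3.99, 3.85 and 4.10 on the dorsal arrays and 3.97, 3.58 and 4.06 on the ventral arrays, which overlapped. The Axin2 means were 3.98 ± 0.12 in dorsal and 3.87 ± 0.25 in ventral tissue, a difference of -0.10 with a 95% interval from -0.53 to 0.32. Notum, which removes the lipid from Wnt proteins, had -0.10, and Nkd1, which binds Dishevelled, -0.02. Over the 6 targets 1 difference was positive and 5 were negative, with a median of -0.10, against -0.06 over all genes.

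Of the 18 ligands, 9 differences were positive and 9 negative, with a median of 0.01. Wnt5b, a ligand of the pathway branch that does not need beta-catenin, read 3.63, 4.06 and 3.78 on the dorsal arrays and 3.40, 3.29 and 3.22 on the ventral arrays. Its groups did not overlap, and the dorsal values were higher by 0.52 ± 0.19 on the log2 scale (adjusted p 0.466 in limma). Wnt5a, its close relative, had group means of 2.70 in dorsal and 2.69 in ventral tissue and a difference of -0.00 with a 95% interval from -0.53 to 0.52.

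Wnt9b is known as the signal of the nephric duct that starts kidney tubule formation. Wnt9b read 4.52, 4.88 and 4.44 on the dorsal arrays and 4.09, 4.38 and 4.10 on the ventral arrays. Every dorsal value was above every ventral value, and the 3 pairs differed by -0.44, -0.51 and -0.34, the most even pairs among the 5 genes with an unadjusted limma p under 0.05. The difference was -0.43 ± 0.17, with an adjusted p of 0.484 in limma. Nephric marker genes did not share 1 direction. Of 8 measured, 6 had negative and 2 positive differences with a median of -0.03. The differences were -0.96 for Sall1 and -0.47 for Pax8, both with every dorsal array above every ventral array. Lhx1 had 0.32, with every ventral array above every dorsal array. Pax2, Gata3, Ret, Emx2 and Osr1 had -0.29, -0.04, -0.01, -0.01 and 0.54. Groups thus did not overlap for 37.5% of the 8 markers, against 18.7% of all genes. The summed linear signal of this list ran from 73.7 to 99.2 in dorsal and from 72.1 to 77.4 in ventral arrays. Sall1 exceeded the yardstick on dorsal array 1 alone, and the other nephric markers exceeded it on no array. The part of nephric tissue in the Wnt9b values was not tested.

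Among the other ligands Wnt7b also had every dorsal array above every ventral array, with a difference of -0.27 (adjusted p 0.601 in limma). Wnt3 had -0.36 and Wnt10b 0.38. Wnt8a had -0.41, with dorsal array 2 at 4.09 and the other 5 arrays from 2.75 to 3.12, and its pairs differed by -0.01, -1.34 and 0.10. Wnt3a and Wnt1, which act in the dorsal neural tube, had 0.18 and -0.12. Wnt2, Wnt4 and Wnt11 had 0.24, 0.19 and 0.18, each with the same sign in all 3 pairs and with 95% intervals that included 0. The differences of all 18 ligands lay between -0.52 and 0.38, and the intervals of 16 ligands, all but Wnt8a and Wnt10b, stayed within 1 log2 unit of 0. Group means of the ligands ran from 2.53 to 4.62. By gene order in GRCm38.p6, 4 pairs of ligands lie next to each other among protein-coding genes, an arrangement that their choice by symbol did not use. The neighbours Wnt9b and Wnt3 had -0.43 and -0.36, Wnt3a and Wnt9a 0.18 and 0.17, Wnt6 and Wnt10a -0.20 and 0.13, and Wnt10b and Wnt1 0.38 and -0.12. The signs were equal in 2 of the 4 pairs.

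**Figure D1:**
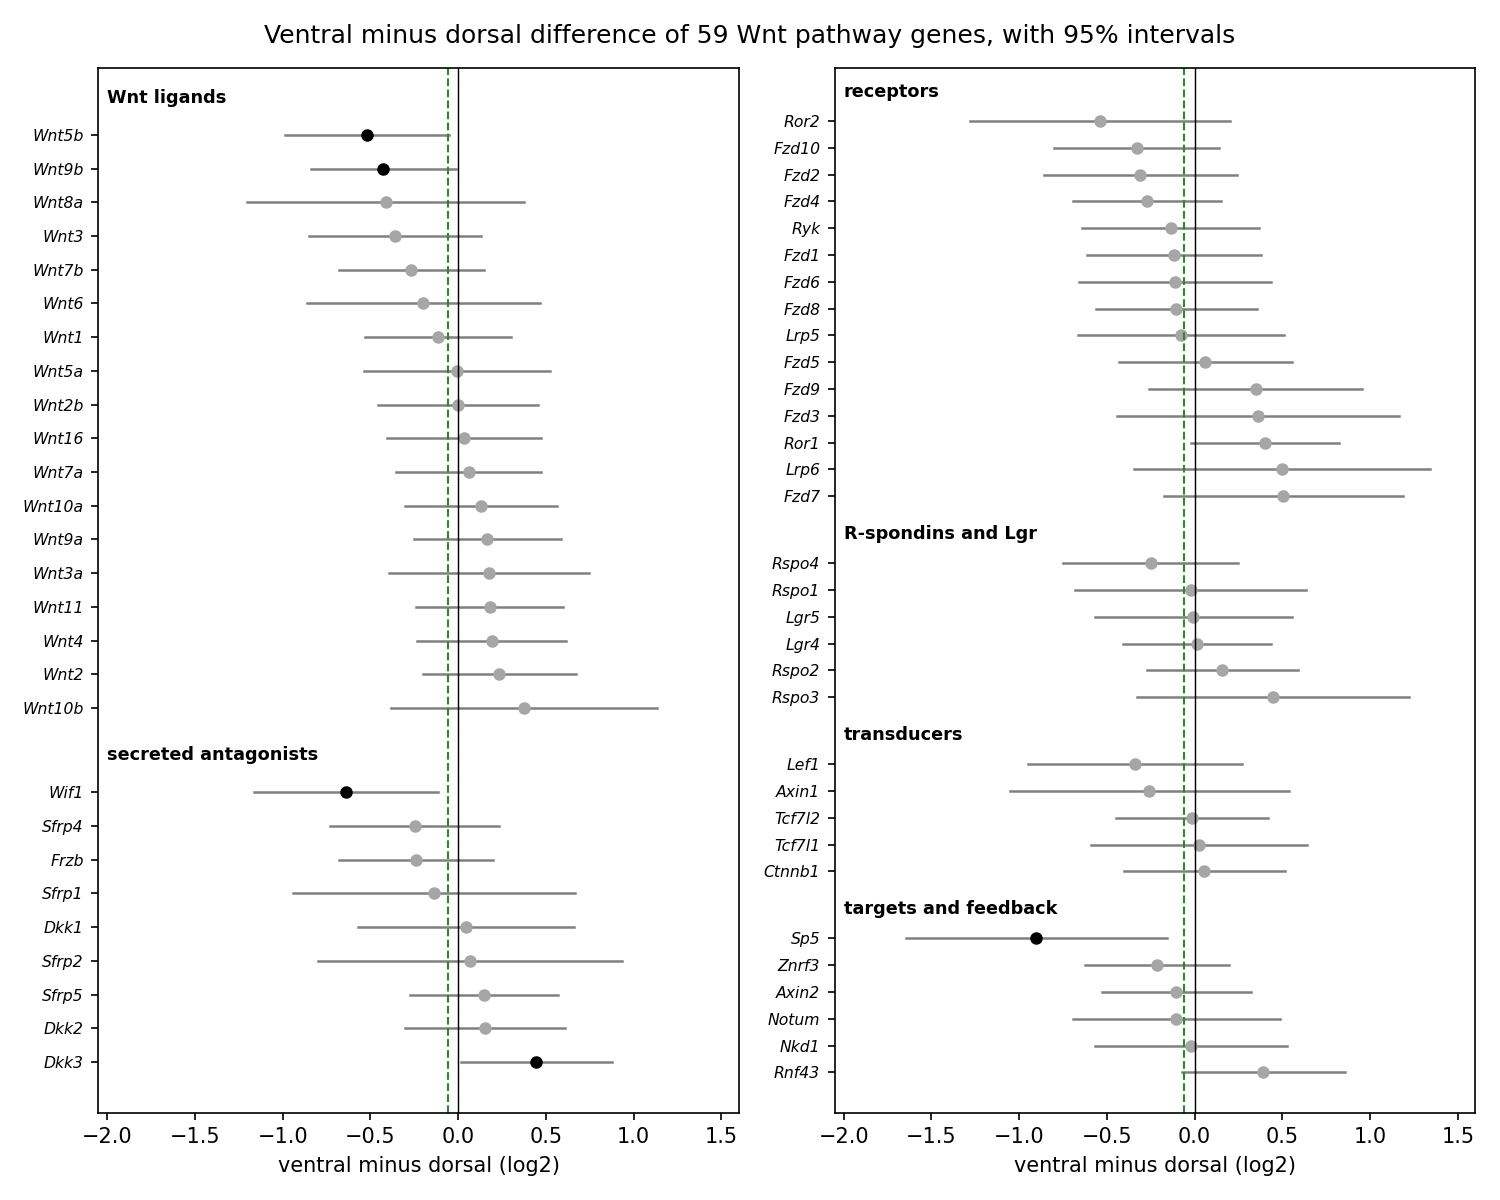
Ventral minus dorsal difference (log2, horizontal axis) of each of the 59 measured genes by role, with 95% intervals from limma, a solid line at 0 and a dashed line at the median of all genes (-0.06). Black points mark the 5 genes with an unadjusted p under 0.05, and the intervals of the other 54 genes include 0.

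The 15 receptors and co-receptors had 6 positive and 9 negative differences and a median of -0.10, and none reached an unadjusted limma p under 0.05 with the replicate block. Ror1 and Ror2 are receptor tyrosine kinases that bind Wnt5a. Ror2 read 4.66, 5.67 and 4.71 on the dorsal arrays and 4.36, 4.31 and 4.76 on the ventral arrays. Its groups overlapped through ventral array 3, dorsal array 2 stood above the other 5 arrays, and the 3 pairs differed by -0.30, -1.36 and 0.05. The difference of Ror2 was -0.54 ± 0.30, with an adjusted p of 0.565 in limma, and it was -0.13 without pair 2. Ror1 read 2.55, 2.92 and 2.95 on the dorsal arrays and 3.10, 3.29 and 3.25 on the ventral arrays, with no overlap, at levels near the array medians of 3.20 to 3.27. The difference of Ror1 was 0.40 ± 0.17 (adjusted p 0.495 in limma). Its unadjusted limma p of 0.0581 was 0.0479 without the replicate block, 0.0407 after median centring, 0.0381 after cyclic loess and 0.0464 with an intensity trend. The same limma p was 0.0636 without genes under the 25th percentile of means. It was 0.22, 0.126 and 0.101 without pairs 1, 2 and 3. Whether Ror1 and Ror2 differ from each other in their dorsal to ventral difference was not tested.

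Fzd7, a Frizzled receptor, read 4.28, 4.07 and 3.72 on the dorsal arrays and 4.23, 4.41 and 4.94 on the ventral arrays. The groups overlapped, and pair 3 differed by 1.22 while pair 1 differed by -0.04. The difference of Fzd7, 0.51, was 0.15 without pair 3. Fzd4 and Fzd10 had every dorsal array above every ventral array, with differences of -0.27 and -0.33. Fzd1 exceeded the yardstick on 2 dorsal arrays and had -0.12, with means of 4.65 ± 0.24 in dorsal and 4.53 ± 0.21 in ventral tissue. The co-receptors Lrp5 and Lrp6 had -0.08 and 0.50, and Lrp6 read 4.64, 3.16 and 4.26 on the dorsal arrays against 4.44, 4.64 and 4.47 on the ventral arrays. Dorsal array 2 was low for Lrp6, and the other 5 arrays lay together. Ryk, a Wnt receptor related to kinases, had -0.14. Receptors varied more between dorsal than between ventral arrays in 14 of 15 cases. The same held for 67.8% of the 59 genes and for 66% of all genes.

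Among the 9 secreted antagonists, Wif1, which binds Wnt proteins outside the cell, read 3.97, 4.19 and 4.18 on the dorsal arrays and 3.77, 3.43 and 3.22 on the ventral arrays. Its groups did not overlap. The means were 4.12 ± 0.12 and 3.47 ± 0.28 (SD, n = 3 each), with a difference of -0.64 ± 0.21 (95% interval from -1.17 to -0.12), a 1.56-fold higher dorsal signal, an adjusted p of 0.464 in limma and 1305 genes of smaller p. Dkk3, a member of the Dickkopf family, read 3.45, 3.58 and 3.58 on the dorsal arrays and 3.90, 4.20 and 3.85 on the ventral arrays. Every ventral array of Dkk3 was above every dorsal array, and the difference was 0.45 ± 0.17 (adjusted p 0.484 in limma). Dkk1 and Dkk2, which block or modulate the co-receptors, had 0.04 and 0.16. Sfrp1, Sfrp2, Sfrp4, Sfrp5 and Frzb carry a Frizzled-like domain that binds Wnt proteins, and their differences were -0.14, 0.07, -0.25, 0.15 and -0.24. Sfrp2 exceeded the yardstick on dorsal array 2 alone, at 4.60 against 3.14 and 3.17 on the other dorsal arrays. The antagonists had a median of 0.04, with 5 positive and 4 negative differences.

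The R-spondins are secreted proteins that strengthen Wnt signals by holding Rnf43 and Znrf3 away from Frizzled, with Lgr4 and Lgr5 as their receptors. Rspo3 read 3.15, 3.63 and 3.44 on the dorsal arrays and 3.49, 4.91 and 3.17 on the ventral arrays. Ventral array 2 stood apart from the other 5, the groups overlapped, and the difference of 0.45 became -0.08 without that array. Rspo4 read 3.89, 4.19 and 3.48 on the dorsal arrays and 3.49, 3.70 and 3.62 on the ventral arrays, with overlap, and its difference of -0.25 was -0.08 without dorsal array 2. Rspo1 and Rspo2 had -0.02 and 0.16, and Lgr4 and Lgr5 had 0.01 and -0.01. The median over these 6 genes was 0.00.

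The 5 measured transducers had a median of -0.02. Lef1, a DNA-binding partner of beta-catenin, read 3.74, 3.97 and 3.67 on the dorsal arrays and 3.30, 3.15 and 3.91 on the ventral arrays. Its groups overlapped through ventral array 3, and the difference was -0.34 ± 0.25 (adjusted p 0.642 in limma). It was -0.19 without ventral array 2, -0.57 without ventral array 3, -0.10 without pair 2 and -0.63 without pair 3. Axin1, the scaffold of the breakdown complex, read 3.50, 3.67 and 2.25 on the dorsal arrays and 2.63, 3.10 and 2.91 on the ventral arrays. Dorsal array 3 was the lowest and the other dorsal arrays were the highest, and the Axin1 difference of -0.26 was 0.05 without pair 1. Tcf7l1 and Tcf7l2, further partners of beta-catenin, had 0.03 and -0.02, and Ctnnb1 had 0.05 with a 95% interval from -0.41 to 0.51.

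Groups did not overlap for 10 of the 59 genes, 7 with higher dorsal and 3 with higher ventral values. This was 16.9% of the genes, against 18.7% of all genes (12% dorsal-higher and 6.74% ventral-higher). All 3 pairs had the same sign for 12 genes with higher dorsal values, or 20.3% against 21.8% of all genes, and for 9 genes with higher ventral values, or 15.3% against 13.3%. Differences were negative for 33 of the 59 genes (55.9%, against 58% of all genes), with a median of -0.02 against -0.06. None of the 59 differences exceeded 1 log2 unit, and only 535 of all 24675 genes had one that did. The 95% intervals of 49 of the 59 genes stayed within 1 log2 unit of 0, as did those of 19764 of all 24675 genes. Differences in signal beyond 2-fold lay outside these intervals. The intervals of Wif1, Wnt8a, Wnt10b, Fzd3, Fzd7, Lrp6, Ror2, Rspo3, Sp5 and Axin1 reached further. The genes under the unadjusted limit changed when pairs were left out. Such fits have fewer arrays and less power, so a p above the limit does not show that a difference was absent. The 5 genes kept their signs in these fits. Without both arrays numbered 1, 6 genes had an unadjusted limma p under 0.05, 3 of them from the 5. Without those numbered 2 there were 0, and without those numbered 3 there were 3, of which 0 came from the 5. With arrays centred on their medians the 5 such genes were 3 dorsal-higher and 2 ventral-higher, and after cyclic loess the split was 4 to 2.

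**Figure D2:**
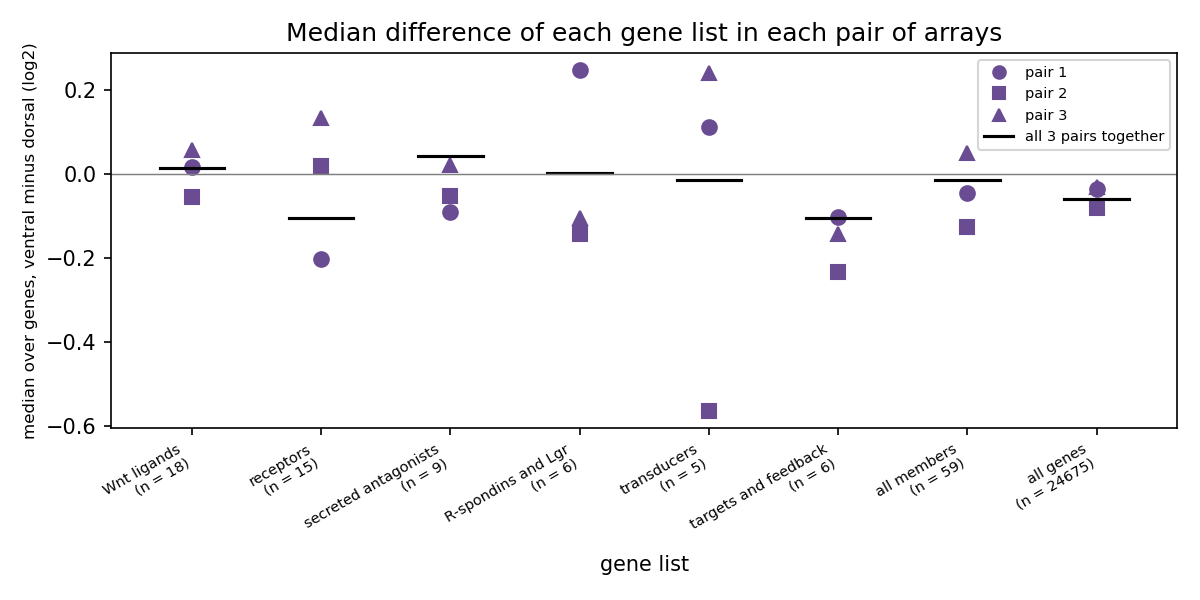
Median ventral minus dorsal difference (log2, vertical axis) of each role list, of all 59 genes and of all 24675 genes, with 1 symbol per pair of equal replicate number and a bar for the median over all 3 pairs together. The targets lie below 0 in all 3 pairs (-0.10, -0.23 and -0.14), as do all genes (-0.04, -0.08 and -0.03), while the ligands, receptors, antagonists, R-spondins and transducers lie on both sides of 0.

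Markers of tissues that a cut could hold were read beside the dorsal-higher genes Sp5, Wif1, Wnt5b and Wnt9b. Over the 59 genes 55.9% of differences were negative, against 58% of all genes. Sclerotome is the somite mesenchyme from which vertebrae form. Of 11 sclerotome and cartilage markers 10 had negative differences, with a median of -0.46. For 4 of them every dorsal array was above every ventral array (Twist1, Foxc2, Nkx3-2 and Uncx). This was 36.4%, against 12% of all genes. The summed linear signal of the 11 markers was 268 to 282 on dorsal and 149 to 198 on ventral arrays. Twist1, a transcription factor of mesenchyme, had -1.40 and exceeded the yardstick on all dorsal arrays. The defining markers Pax1 and Pax9 had -0.02 and -0.23 and exceeded it on no array. For the ventral side, 3 of 9 splanchnic mesoderm markers had positive and 6 negative differences, with a median of -0.10. They ran from -0.71 for Foxf2 to 0.59 for Tcf21, and the defining markers Foxf1 and Gata4 had -0.40 and -0.06. Foxf2 and Nkx2-5 had every dorsal array above every ventral array, or 22.2% of the 9 against 12% of all genes. The summed signal of that list was 160 to 197 on dorsal and 154 to 168 on ventral arrays. No endothelial marker of 8, among them Pecam1 and Cdh5, exceeded the yardstick on any array. Since 20949 of all 24675 genes did not either, this does not show that endothelium was absent. Notochord markers had a median of -0.11 over 6 genes. Of 8 neural markers 5 had positive and 3 negative differences, with a median of 0.10. Ventral array 1 stood apart for Sox2, Nes and Pax6 only. Sox2, a transcription factor of neural progenitors, read 7.61 on that array and 2.20 to 2.73 on the other 5. Nes, an intermediate filament of such cells, read 5.29 there and 3.30 to 4.06 on the others. Pax6 read 4.06 there and 3.20 to 3.63 on the others. Sox1, Olig2, Tubb3, Elavl3 and Sox10 read on ventral array 1 within the range of the other arrays. The summed neural signal was 73 to 95.1 on dorsal and 87 to 309 on ventral arrays. The value of 309 belonged to ventral array 1 and came largely from Sox2. Without ventral array 1, in a fit without the block, the differences of Sp5, Wif1, Wnt5b, Wnt9b and Dkk3 were -0.97, -0.79, -0.57, -0.38 and 0.49. The summed signal of 6 red cell markers varied within both regions, from 1796 to 7099 on dorsal and from 502 to 10119 on ventral arrays. Smooth muscle and pericyte markers had 5 of 7 negative differences (median -0.17), and coelomic and gonad markers 5 of 6 (-0.04). Gut endoderm and liver markers had 6 of 10 negative differences (median -0.13), and blood cell markers 5 of 6 (-0.16). The part of tissue composition in the values of Sp5, Wif1, Wnt5b and Wnt9b was not tested, and fewer cells of a type and less RNA per cell cannot be told apart in such samples.

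The rest of the pathway was followed with 94 further genes, of which 91 were measured. None passed an adjusted p of 0.05 in limma, and 8 had an unadjusted p under 0.05 (8.79%, against 10.2% of all genes), 4 in each direction. Their median was -0.08. Of these 8, 4 were among 16 measured inhibitors (25%) and 4 among 30 measured transducers (13.3%). The lists of secretion factors (4 measured), further receptors (7), planar cell polarity (18) and further targets (16) held 0 of them. Whether the lists differ in this was not tested.

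Dact3, a Dishevelled-binding inhibitor, read 4.44, 3.59 and 4.14 on the dorsal arrays and 5.06, 4.58 and 4.98 on the ventral arrays. Its groups did not overlap, and the difference was 0.82 ± 0.18 (adjusted p 0.404 in limma). Igfbp4, which binds insulin-like growth factors and can block Frizzled and Lrp6, read 6.03, 4.40 and 4.82 on the dorsal arrays and 4.15, 3.97 and 3.98 on the ventral arrays, with the groups apart and a difference of -1.05 ± 0.30 (adjusted p 0.437 in limma). Dorsal array 1 was the highest for Igfbp4, and without it the difference was -0.58. Tle3, a corepressor that binds Tcf factors, had -0.68 ± 0.18 and groups that did not overlap. Gsk3b, a kinase of the breakdown complex, read 4.95, 4.39 and 3.70 on the dorsal arrays and 6.83, 5.29 and 4.41 on the ventral arrays. Its groups overlapped, the difference was 1.16 ± 0.27, and the unadjusted limma p moved from 0.00555 to 0.0883 without the replicate block. In fits without the block the difference of Gsk3b was 0.51 without ventral array 1 and 1.71 without ventral array 3.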

How the data were processed

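Values were deposited on a log2 scale, 1 per probe set and array, made by the authors with Affymetrix Expression Console and RMA, per the submitters' processing notes. Versions, genome build and the log base are not given in the sources used here, and the base was taken from the values (0.97 to 12.9). Of 25429 probe sets 24675 had 1 gene symbol in the platform annotation, 754 were not listed and stay unnamed, and none had several.

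Ventral minus dorsal differences were fitted over all 24675 genes in limma 3.58.1 under R 4.3.3 (lmFit and eBayes, two-sided, Benjamini-Hochberg adjustment, threshold 0.05). The replicate number entered as a block, because both regions came from the same embryos per the labels, which do not state that equal numbers share an embryo. As a check, deviations of same-numbered arrays from their group means correlated over genes at 0.04, -0.01 and 0.06. Arrays of unequal number gave -0.06 to 0.03. A correlation over all genes cannot exclude pairing in single genes, and the unadjusted limma p of Gsk3b rose without the block. No Wnt pathway gene was called at an adjusted p with or without the block, so the calls cannot show whether it matters. The procedure was tested on simulated data. The labels call the replicates biological without naming separate litters, so p-values cover the spread among these samples, and the number of arrays limits the precision.

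The members, role lists, further pathway genes and markers were chosen with earlier results of these data known. Genes were named array by array by a rule: those above the yardstick on all 3 arrays of a region, those with an unadjusted p under 0.05 and the 2 of smallest p per role. Ctnnb1, Axin2, Lrp6, Wnt8a and Sfrp2 were added after their values were seen. Of the further pathway genes, at most 2 per list with an unadjusted p under 0.05 are named. Alternatives covered the block, scaling, filters on dim genes, an intensity trend and left-out arrays. Promoter sequences came from RefSeq (GRCm38.p6).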

Additional observations from a re-analysis of the deposited data

How the results depend on the processing

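No Wnt pathway gene passed the adjusted p of 0.05 in limma under any of the 15 alternatives. At an unadjusted p under 0.05 the main count was 1 ventral-higher gene and 4 dorsal-higher genes of the pathway. The ventral-higher count was 3 without the replicate block, 2 after centring arrays on their median, 2 after cyclic loess and 0 when genes under the median of means were left out, a filter that kept 35 of the 59 genes. With arrays left out it ran from 0 to 4, and the dorsal-higher count from 0 to 7. Over all genes limma called 0 genes, 1 without the replicate block and 0 to 5 with arrays left out. The median of the ligands, 0.01, was 0.092 after cyclic loess, 0.15 with the filter at the median and -0.033 to 0.082 with arrays left out. With arrays left out the median of the antagonists ran from -0.23 to 0.10 and that of the targets from -0.22 to -0.036. Axin1 changed sign, to 0.048 without pair 1 and to 0.0046 without dorsal replicate 2, and Rspo3 changed sign, to -0.081 without ventral replicate 2. With arrays left out Axin1 ran from -0.72 to 0.048 and Rspo3 from -0.081 to 0.81. The yardstick was passed by 7 genes at the 90th and 0 at the 99th percentile of olfactory receptor genes. The causes of these changes were not tested. Fits that left out a single array had no replicate block. No pathway gene was called at the adjusted p with or without the replicate block. Under every alternative run Sp5, Wif1, Wnt5b and Wnt9b kept lower and Dkk3 higher ventral values, with adjusted p from 0.221 to 0.708 in limma.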
